A study of Rattus norvegicus with 3 samples.

Results

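The genes described are those of the mitochondrial carriers and of the machinery that brings proteins into mitochondria, read in 3 cell bodies of cultured rat neurons. Members were all probe sets that carry exactly 1 gene symbol in the annotation of the array and whose symbol starts with Slc25a, or with Timm or Tomm followed by a number. This gave 90 probe sets of 63 genes, out of 20832 probe sets and 14218 genes with a single symbol. There were 40 carriers (58 probe sets), 14 genes of inner membrane import (19 probe sets) and 9 genes of outer membrane import (13 probe sets). Another 3 probe sets that match several genes were left out, among them the probe set of Timm23, the channel of the presequence translocase, which therefore has no value here. Every array held the amplified RNA of 1 soma drawn into a glass pipette from a pyramidal neuron of a Sprague-Dawley hippocampal culture, taken from embryos at embryonic day 19 and grown for 14 days. The labels name no treatment, and there was no second group. The 3 arrays are called cell 1, cell 2 and cell 3 after their replicate numbers, and since neither animal nor dish is named, the spread between them may hold both biology and the amplification of RNA from single cells.

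Most mitochondrial proteins are made in the cytosol and imported. Precursors are bound by receptors of the outer membrane, pass the TOM channel and are then sorted, with presequence proteins going through the TIM23 complex into the matrix and carrier proteins going with small TIM chaperones to the TIM22 complex, which inserts them into the inner membrane. The carriers are thus cargo of the import genes. They exchange ADP for ATP, phosphate, amino acids, carboxylates, nucleotides and metal across the inner membrane. Neurons depend on them for ATP at synapses and for moving reducing power and glutamate between cytosol and matrix.

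The measure is a log2 intensity for each probe set, and the value of a gene is the median over its probe sets. Within each array genes were ranked, and the percentile gives the place of a gene among the 14218. A probe set also differs from another in how brightly it hybridises, so a percentile tells where a gene stood on the array and not how many transcripts it had. A gene was called above background where it exceeded the 95th percentile of 140 genes that are silent in neurons (chemosensory receptors and genes of other organs) on the same array. The difference of 1 gene between 2 cells does not hold the brightness of its probe sets and was taken after quantile normalisation, which gives the arrays the same distribution.

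The arrays carried the profile of neurons, while the label of pyramidal neuron was carried by part of its markers. Of 16 markers of neurons in general, 12 lay over the 50th percentile in every cell, where 26.4% of all genes did, and their medians were 87.3, 86.3 and 89.9 in cells 1, 2 and 3. Medians of 11 excitatory markers were 55.3, 51.2 and 87.2. Among the latter Neurod2, a transcription factor of excitatory neurons, lay at 99.9, 99.9 and 99.9, while the kinase gene Camk2a lay at 26.5, 19.6 and 26.2. Of the lists of other cells, those of microglia and of endothelium and fibroblasts had their highest median in cell 1. Medians of 12 microglial markers were 70.8, 51.6 and 31.4, with 4, 0 and 0 of them above background (all genes 9.22%, 6.34% and 11.5%). Medians of 13 markers of endothelium and fibroblasts were 70.3, 57.7 and 37.4, but 1, 2 and 2 of them were above background. Among these Vwf lay at 99.8, 99.8 and 99.7. Medians of 9 astrocyte markers were 29.96, 36.96 and 37.4. Those of 11 oligodendrocyte markers were 51.6, 63.03 and 54.7, and those of 10 interneuron markers 57.9, 75.2 and 36.9. Pearson's r over the 63 members was 0.659 for cells 2 and 3, whereas cell 1 had 0.539 with cell 2 and 0.548 with cell 3. Over all genes r was 0.676, 0.474 and 0.439 for cells 2 and 3, 1 and 2, and 1 and 3, so cells 2 and 3 were the closest pair there too. These are descriptions, since the genes share the brightness of their probe sets on every array.

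To compare the 3 classes, the median percentile of each was taken in each soma. Carriers stood above the middle of the array in every cell, with medians of 67.5, 69.2 and 61.5 in cells 1, 2 and 3 (mean 66.1 ± 4.08, SD, n = 3 cells). Genes of inner membrane import stood about the middle, at 43.2, 53.8 and 51.2 (mean 49.4 ± 5.54). Genes of outer membrane import were at 48.4, 73.5 and 77.4 (mean 66.5 ± 15.7), so that they lay with the inner membrane genes in cell 1 and above the carriers in cells 2 and 3.

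The order of the classes was in part the same in the 3 cells. The median of inner membrane import was below that of the carriers in each cell, by 24.3, 15.4 and 10.2 percentile points. The median of outer membrane import exceeded that of inner membrane import in each cell, by 5.23, 19.7 and 26.2 points (mean 17.03 ± 10.7, SD, n = 3 cells). Outer membrane import minus carriers gave -19.1, 4.33 and 15.9 points and thus had no fixed direction, and import as a whole minus carriers gave -22.4, -8.94 and 9.63. With 3 cells an exact test by sign flipping cannot give a two-sided p below 0.25, so no test was made. Among genes above the median level, inner membrane import minus carriers was -0.896 ± 23.0 points, a mean of cells that differed widely. Outer minus inner import was 3.73 ± 11.1 there. This filter used the same values and ranked the remaining genes anew. Outer minus inner import was 9.39 ± 11.4 where only brightest probe sets were used and 10.3 ± 4.82 where class means replaced medians. Using brightest probe sets, import as a whole minus carriers was -15.1.

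**Figure D1:**
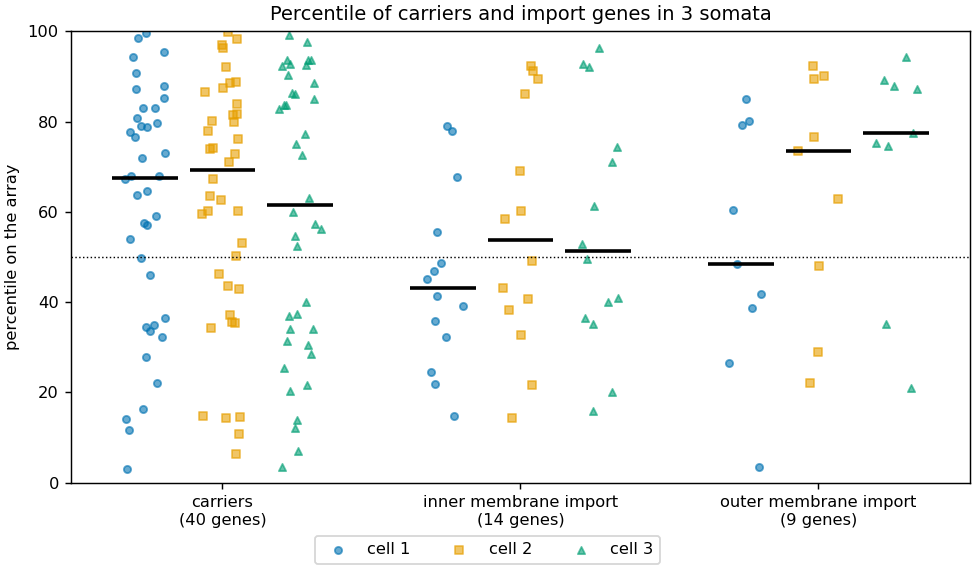
Percentile on the array (vertical axis) of each gene of the 3 classes, drawn as circles for cell 1, squares for cell 2 and triangles for cell 3, where black bars give class medians and the dotted line marks percentile 50. Carriers have their medians at 67.5, 69.2 and 61.5, and the bar of outer membrane import stands at 48.4 in cell 1 and 77.4 in cell 3.

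Few members read above background. The cut was strict: of 16 markers of neurons in general 7, 3 and 9 passed it in cells 1, 2 and 3, and 6 passed in no cell. A member under the cut thus cannot be taken as not expressed. In cells 1, 2 and 3 the counts of members were 4, 4 and 15 of 63. Those are 6.35%, 6.35% and 23.8%, where the shares of all genes were 9.22%, 6.34% and 11.5%. The share of members was thus near or below that of all genes in cells 1 and 2 and about double it in cell 3. Of the members 19 were above background in at least 1 cell (30.2%, all genes 18.6%). Leaving out cell 3 gave 6, for which the share of all genes was not computed. In every cell 2 members passed (3.17%, all genes 2.42%). Taking only the brightest probe set of a gene, 6, 9 and 23 members passed, where all genes gave 12.4%, 11.1% and 20.1%. Over the 50th percentile in every cell were 20 carriers, 4 inner and 4 outer membrane genes, 44.4% of the members (all genes 26.4%), and 14 members were under it in every cell (22.2%, all genes 25%).

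**Figure D2:**
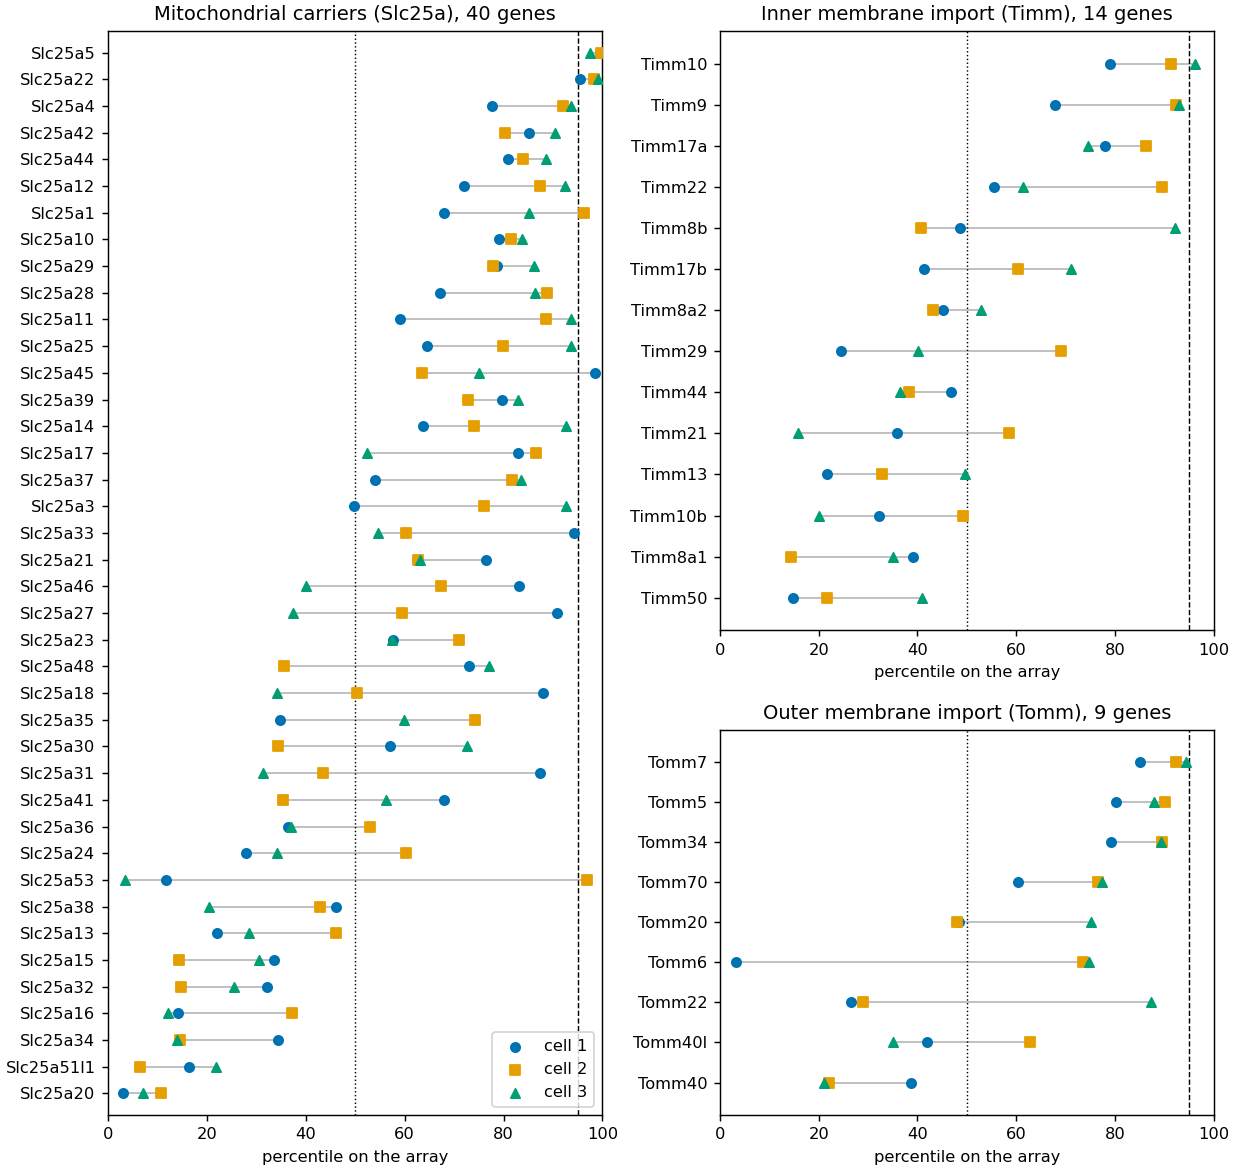
Percentile on the array (horizontal axis) of each of the 63 genes, ordered by their mean within the class, in cell 1 (circles), cell 2 (squares) and cell 3 (triangles); the grey line joins the lowest and highest cell, the dotted line marks the 50th and the dashed line the 95th percentile. Slc25a5 and Slc25a22 lie beyond the dashed line in every cell (Slc25a22 would not in cell 1 if brightest probe sets were used), while Slc25a53 and Tomm6 span most of the axis.

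The carriers of ADP, ATP and phosphate supply oxidative phosphorylation with its substrates. Slc25a5, the ADP/ATP translocase that many tissues share, was the member with the highest mean percentile and read 11.86, 12.24 and 11.05 log2 in cells 1, 2 and 3 (11.72 ± 0.61, SD, n = 3). It was in the top 5% of genes in every cell, where 1.39% of all genes were. Of the 63 members 3, 4 and 3 were in the top 5% of cells 1, 2 and 3 (all genes 5.01%, 5.01% and 5%), and 6 in at least 1 cell (9.52%, all genes 9.91%). Slc25a4, the isoform known from heart and muscle that is also made in brain, read 8.38, 9.63 and 10.13 log2, at percentiles of 77.7, 92.00 and 93.6. Both isoforms thus stood high, and they differed in opposite directions between cells 3 and 1, with Slc25a4 at 1.55 and Slc25a5 at -1.08 on the quantile-normalised log2 scale. Slc25a31, the isoform known from testis and named here after its values were seen, lay at 87.3, 43.5 and 31.3, high in cell 1 alone. Slc25a3, the phosphate carrier, read 7.26, 8.32 and 9.94 log2, and its percentile was 49.7, 76.1 and 92.6, with cell 1 at the middle of the array and cell 3 near its top.

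Carriers of other nucleotides and cofactors spread over the whole array. The exchangers of ATP-Mg and phosphate were led by Slc25a25 at 64.5, 79.8 and 93.7, which was 2.20 log2 higher in cell 3 than in cell 1. Slc25a23, of the same kind, lay at 57.6, 71.1 and 57.4, but its 3 probe sets had mean percentiles of 33.5, 60.8 and 97.1, so its place depends on the probe set chosen. Slc25a24 and Slc25a41 lay at 27.8, 60.3 and 34.1 and at 67.9, 35.3 and 56.2. Slc25a42, which carries coenzyme A, was steady and high at 85.2, 80.2 and 90.4, and Slc25a17, the peroxisomal member of the family, lay at 83.01, 86.5 and 52.4. Slc25a33, a pyrimidine nucleotide carrier, lay at 94.3, 60.3 and 54.7 and was thus high in cell 1 and near the middle elsewhere, whereas its relative Slc25a36 lay at 36.4, 53.1 and 37.01. Slc25a16 was low in all cells, at 14.1, 37.2 and 12.1. Together with the 4 carriers of ADP, ATP and phosphate described before them, these 13 carriers had medians of 67.9, 71.1 and 56.2, with 2, 1 and 5 genes above background (all genes 9.22%, 6.34% and 11.5%).

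Carriers of aspartate and glutamate link the matrix with the cytosol. Slc25a22, a glutamate carrier, read 10.23, 11.09 and 11.76 log2 (11.02 ± 0.76, SD, n = 3) and was the other member in the top 5% of every cell, a call that it lost with the brightest probe set per gene, where it lay at percentile 92.1 in cell 1. Its relative Slc25a18, which is known as abundant in astrocytes, lay at 87.9, 50.3 and 34.1 and so was high in cell 1 and low in cell 3, a difference of -2.52 log2. The astrocyte markers S100b and Gja1 were also highest in cell 1, at 98.9, 33.2 and 58.2 and at 92.4, 49.7 and 37.4, while Aldh1l1 lay at 2.87, 30.9 and 11.1. The median of the whole astrocyte list, given above, was not higher in cell 1 than in cell 3, and the part of other cells in the reading of Slc25a18 was not tested.

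The aspartate/glutamate carriers drive the malate-aspartate shuttle. Slc25a12 (aralar), the form known from brain and muscle, read 8.08, 9.11 and 9.89 log2, with percentiles of 71.95, 87.4 and 92.4 that were lowest in cell 1. Slc25a13 (citrin), the form known from liver, lay at 22.1, 46.2 and 28.4 and was below Slc25a12 in every cell. Its probe sets differed from each other within cells, at 42.1, 56.1 and 3.996 and at 12.3, 39.4 and 69.5. In like manner Slc25a22 stood above Slc25a18 in every cell, though a comparison between genes also holds the brightness of their probe sets.

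The other carriers listed with those of amino acids ranged widely. Slc25a44, a carrier of branched-chain amino acids, lay at 80.9, 83.95 and 88.5 and Slc25a29, a carrier of basic amino acids, at 78.7, 77.8 and 86.1. Slc25a29 had an SD of 0.32 log2. The value of Slc25a44 is the median of probe sets that differed in direction, one at 8.83, 6.94 and 8.25 log2 and the other at 8.29, 10.70 and 10.44. Slc25a48 lay at 73.1, 35.6 and 77.2, Slc25a38, a glycine carrier for haem synthesis, at 46.1, 42.8 and 20.3, and Slc25a15, the ornithine carrier of the urea cycle, at 33.6, 14.4 and 30.5. The value of Slc25a15 rests on 6 probe sets, whose mean percentiles ran from 4.94 to 85.6. Over the 9 carriers of this list the medians were 73.1, 50.3 and 77.2, where those of cells 1 and 3 are the values of Slc25a48 itself.

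All 4 di- and tricarboxylate carriers lay over the middle of the array in every cell, where 26.4% of all genes did. Slc25a1, which exports citrate, read 7.92, 10.44 and 8.97 log2 and was in the top 5% in cell 2 alone. Slc25a11, the oxoglutarate carrier of the malate-aspartate shuttle, lay at 59.1, 88.6 and 93.6 and was higher by 1.68 log2 in cell 2 and by 2.41 in cell 3 than in cell 1. Slc25a10, the dicarboxylate carrier, lay at 78.98, 81.4 and 83.7, and its gene value had the smallest SD of the 63 members, 0.16 log2. Both of its probe sets were high, with mean percentiles of 74.9 and 82.2, but they parted in cell 3. The first read 8.31, 8.54 and 8.22 log2 and the second 8.58, 8.71 and 9.47, so the small SD belongs to their median. Slc25a21, the oxodicarboxylate carrier, lay at 76.5, 62.6 and 63.04. The medians of the 4 carriers were 72.2, 84.99 and 84.4.

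Relatives of the uncoupling proteins differed between the cells. Slc25a14, a brain member also called UCP5, lay at 63.7, 73.98 and 92.7 and was above background in cell 3. Slc25a27, also called UCP4 and known from brain, lay at 90.7, 59.5 and 37.4, in the opposite order, with a difference of -2.73 log2 between cells 3 and 1. Its probe sets had mean percentiles of 18.1, 62.6 and 72.1, and the lowest of them was low in every cell. Slc25a30, known from kidney, lay at 57.04, 34.3 and 72.7, with probe sets at mean percentiles of 27.0 and 76.3. The uncoupling proteins named Ucp are not among the members: Ucp1, the protein of brown fat, lay at 95.7, 78.4 and 23.2, Ucp2 at 54.04, 19.9 and 11.6 and Ucp3 at 72.6, 78.9 and 60.4.

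Among carriers of cofactors and metal, those of iron read higher than that of acylcarnitine. Slc25a37 (mitoferrin 1) lay at 53.9, 81.7 and 83.6 and Slc25a28 (mitoferrin 2) at 67.2, 88.8 and 86.4, both lowest in cell 1. Slc25a39, which carries glutathione, lay at 79.7, 72.7 and 82.9. Slc25a20, which brings acylcarnitine into the matrix for fatty acid oxidation, was the lowest of the 63 members, with 4.86, 5.49 and 5.12 log2 and percentiles of 2.95, 10.7 and 7.08. Slc25a32, a carrier of folate and FAD, lay at 32.2, 14.8 and 25.5, but its probe sets had mean percentiles of 9.09 and 54.3. Since Slc25a20 has 1 probe set, its place could not be compared with another.

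Members of less known substrate held Slc25a53 and Slc25a45, which differed widely between the cells. Slc25a53 read 5.68, 10.65 and 4.75 log2 and was thus in the top 5% of cell 2 and near the bottom of cells 1 and 3. Its SD of 3.20 log2 was the largest of the 63 members. Slc25a45 read 11.15, 7.75 and 8.28 log2 and was in the top 5% of cell 1, with an SD of 1.89. Each rests on 1 probe set and on 1 cell. Slc25a46, an outer membrane protein of mitochondrial fission, lay at 83.1, 67.4 and 39.96, highest in cell 1 by its gene value. That order came from 1 probe set, at 9.45, 7.07 and 5.05 log2, while the other read 7.94, 8.75 and 8.54 and was lowest in cell 1. Slc25a35 lay at 34.8, 74.2 and 59.9. Slc25a34 (34.4, 14.6 and 14.00) and Slc25a51l1 (16.4, 6.36 and 21.7), with Slc25a20, closed the carriers.

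In the outer membrane, the small TOM subunits Tomm7 and Tomm5 stood highest. Tomm7, which tunes the assembly of the complex, read 8.84, 9.68 and 10.28 log2 (9.60 ± 0.72, SD, n = 3), at percentiles of 85.1, 92.2 and 94.3. Tomm5 lay at 80.1, 90.1 and 87.8. Tomm6, another small subunit, read 4.90, 8.20 and 8.26 log2, so that it was near the bottom of cell 1 and in the upper part of cells 2 and 3, 3.35 and 3.41 log2 higher on the quantile-normalised scale. Tomm40, the channel itself, lay at 38.7, 22.2 and 21.03 and was under the middle in every cell, and Tomm40l, its paralog, at 41.9, 62.7 and 35.1. Tomm7 and Tomm40 are parts of 1 complex and stood at opposite ends of the class.

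By their gene values the receptors of the outer membrane were higher in cell 3 than in cell 1. Tomm20, the receptor of presequences, lay at 48.4, 48.03 and 75.1. Its probe sets gave mean percentiles of 55.6 and 58.6 but went opposite ways from cell 1 to cell 2. The first read 7.71, 6.75 and 7.87 log2 and the second 6.72, 7.59 and 8.70. The rise from cell 1 to cell 3 was thus mostly in the second. Tomm22, the central receptor, read 6.44, 6.44 and 9.19 log2 and was 2.76 log2 higher in cell 3 than in cell 1. Its equal readings in cells 1 and 2 need not mean equal expression. The arrays of these cells held only 2889 and 2866 distinct values over 31099 probe sets. Tomm70, the receptor of carrier precursors, lay at 60.3, 76.6 and 77.4, but 1 of its probe sets had a mean percentile of 24.1 and the other of 91.9. These both rose from cell 1 to cell 2 and went opposite ways in cell 3. The brighter probe set read 9.07, 9.92 and 11.78 log2 and the dimmer 6.17, 6.78 and 5.05. Tomm34, a cytosolic cochaperone of precursors, lay at 79.1, 89.5 and 89.3 and was above background in cell 3. Its probe sets went opposite ways from cell 1, with 1 at 8.97, 8.28 and 8.30 log2 and the other at 7.93, 10.39 and 10.59. In cell 3 the first was under the background of 9.35, so the call rests on the other.

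Inner membrane import was led by Timm10 and Timm9, small TIM chaperones that escort carrier precursors between the membranes. Timm10 read 8.44, 9.54 and 10.70 log2 (9.56 ± 1.13, SD, n = 3), at percentiles of 78.9, 91.3 and 96.2, and its partner Timm9 read 7.92, 9.69 and 9.98 log2, at 67.7, 92.4 and 92.8. Both were lowest in cell 1, and cell 3 exceeded cell 1 by 2.02 log2 for Timm10 and by 1.90 for Timm9. Timm8b lay at 48.6, 40.7 and 92.1 and was thus above background in cell 3 alone. Its partner Timm13 lay at 21.8, 32.7 and 49.5, also highest in cell 3 but never over the middle. Timm8a1, the rat gene of the deafness-dystonia protein, lay at 39.1, 14.4 and 35.1, with probe sets at mean percentiles of 4.47 and 65.8, its relative Timm8a2 at 45.2, 43.1 and 52.9, and Timm10b at 32.2, 49.2 and 20.00. Of the 7 small TIM genes 0, 0 and 3 were above background in cells 1, 2 and 3 (all genes 9.22%, 6.34% and 11.5%).

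Genes of the inner membrane translocases ranged from Timm17a to Timm50. Timm17a and Timm17b, alternative partners in the TIM23 channel, lay at 77.9, 86.2 and 74.5 and at 41.3, 60.3 and 71.1, so that Timm17a was the higher in every cell and the gap was smallest in cell 3. Timm44, which tethers the import motor, lay at 46.8, 38.3 and 36.4, and Timm50, the receptor of the complex, at 14.9, 21.7 and 40.8, the lowest mean of the class. Timm21 lay at 35.8, 58.5 and 15.8. None of these 5 Timm genes of the TIM23 complex was above background in any cell, where 18.6% of all genes were so in at least 1. In the TIM22 complex, which inserts carriers, Timm22 lay at 55.4, 89.4 and 61.3 and Timm29 at 24.6, 68.99 and 40.1, both highest in cell 2. The probe sets of Timm22 stood at mean percentiles of 47.6 and 81.2 and those of Timm29 at 28.6 and 61.8.

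To see the regulatory sequence beside the readings, RefSeq promoters (GRCr8, 250 bases before to 50 after the start of the gene) were searched for the sites of NRF-1 and of ETS factors, which are textbook regulators of mitochondrial genes. A promoter was given for 55 of the 63 members. The NRF-1 letters, GCGCA followed by any base and GCGC, on either strand, were in 4 members (Slc25a31, Timm21, Tomm20 and Tomm7, 7.27%), where 4.82% of all 27457 genes with a promoter had them. The ETS letters CCGGAAGT, on either strand, were in 7 members (12.7%, all genes 4.20%), namely Timm10, Timm10b, Timm8a2, Tomm20, Tomm70, Slc25a17 and Slc25a20. Tomm20 was the member with both, and its matches do not overlap. Its NRF-1 match lies on the strand opposite to the gene. Shown here are windows of 30 bases from 4 import genes described above, so that the letters can be read beside the values, written 5′ to 3′ on the strand of the gene with the match in capitals. They lie at chr4:12197460-12197489, plus strand (Tomm7), chr19:71832505-71832534, minus strand and chr19:71832430-71832459, minus strand (Tomm20), chr3:90315103-90315132, plus strand (Timm10) and chr11:56886348-56886377, minus strand (Tomm70).
Tomm7, NRF-1: gtcgcatgcgGCGCATGCGCacttcctctc
Tomm20, NRF-1: agggttatctGCGCGTGCGCaccaggcgct
Tomm20, ETS: gtcctcgcgcaCCGGAAGTcctcacactcg
Timm10, ETS: tagacttccttCCGGAAGTgacccacgtgc
Tomm70, ETS: tccttctgaccCCGGAAGTggttctcccct
Genes with a match stood at all levels, from Tomm7 and Timm10 near the top over Tomm70 and Tomm20 to Slc25a20, the lowest of the 63 members. A match is a description of letters in the promoter, and binding was not measured.

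Differences of the same gene between cells compare the somata without the brightness of the probe sets. Relative to cell 1, import genes read higher in the other cells: their median difference was 0.69 log2 for cell 2 and 0.78 for cell 3, while all genes had 0.10 and 0.21. Higher in cell 2 than in cell 1 were 17 of 23 import genes (all genes 53.4%), and higher in cell 3 than in cell 1 were 16 (all genes 55.7%). By over 1 log2, 10 import genes were higher in cell 3 than in cell 1 (6 inner and 4 outer membrane genes, all genes 26.9%) and none was lower (all genes 22.7%), although 1 was lower with the values as deposited. The count of higher genes was 16 with the brightest probe set per gene (all genes 30.1%) and 5 among genes above the median level (28.3%). That filter also removed import genes, so the 5 are not out of 23. Each side of these differences is a single soma, so they have no test.

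Carriers differed in both directions. Their median difference from cell 1 was 0.25 log2 in cell 2 and 0.23 in cell 3. By over 1 log2, 9 of 40 were higher in cell 3 than in cell 1, led by Slc25a3, Slc25a11, Slc25a25 and Slc25a14, and 9 were lower, led by Slc25a45, Slc25a27, Slc25a33, Slc25a31 and Slc25a18. These shares of 22.5% each lay near the 26.9% and 22.7% of all genes. By over 1 log2, 11 carriers and 5 import genes were higher in cell 2 than in cell 1 (all genes 24%), and 7 carriers and 1 import gene, Timm8a1, were lower (all genes 22.5%). In cell 3 against cell 2, 5 carriers and 3 import genes were higher by as much (all genes 18.8%), and 6 carriers and 5 import genes were lower (all genes 17.4%). Higher in cell 3 than in cell 2 were 21 carriers and 13 import genes (all genes 51.9%), and the median difference was 0.08 log2 for carriers and 0.06 for import genes. Excitatory markers and microglial markers had median differences between cells 3 and 1 of 1.22 and -1.63 log2, and their part in the shift of the import genes was not tested.

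**Figure D3:**
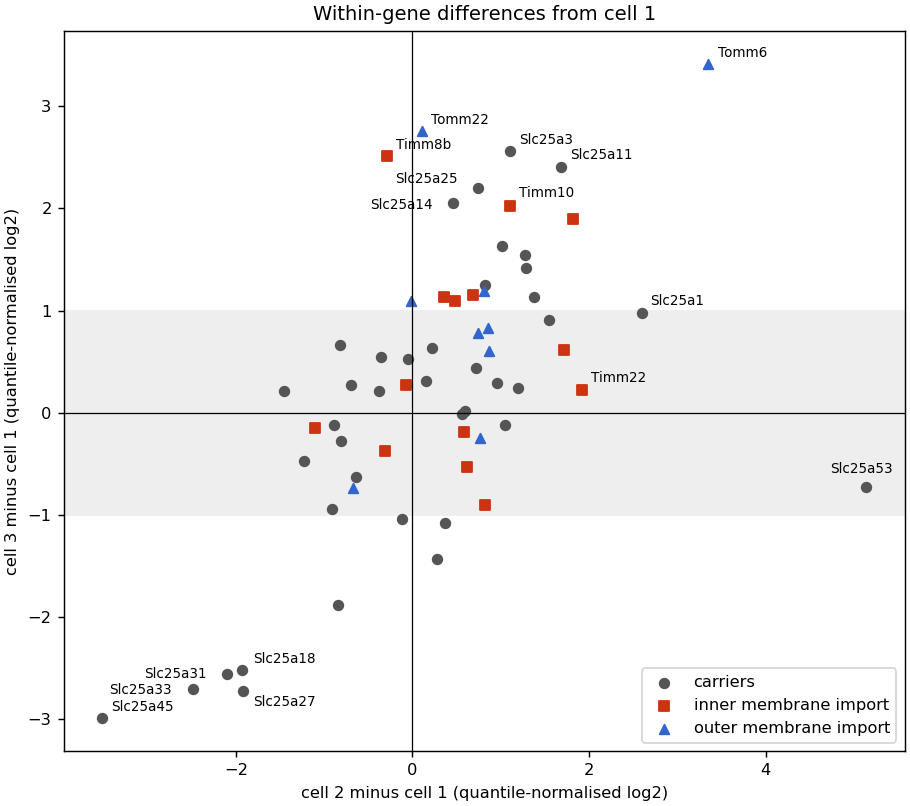
Difference from cell 1 of each member in cell 2 (horizontal axis) and in cell 3 (vertical axis) in quantile-normalised log2 units, with carriers as circles, inner membrane import as squares and outer membrane import as triangles; the grey band holds differences of at most 1 log2 between cells 3 and 1. No import gene lies below the band, while 9 carriers do.

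The spread over the 3 cells depended on how probe sets were combined. With their median, the median SD was 0.74 log2 for carriers and 0.58 for import genes, where all genes had 0.77, and 17 members had an SD above 1 log2 (27.0%, all genes 34%). Using brightest probe sets alone, the median SD of the import genes was 0.996 and that of all genes 0.85. The members with the largest SD were Slc25a53, Tomm6 (1.95), Slc25a45, Tomm22 (1.56) and Timm8b (1.54), each with 1 probe set. Leaving out cell 1, 2 or 3, the median SD over the remaining cells was 0.459, 0.657 and 0.638 for carriers. For import genes it was 0.546, 0.588 and 0.526. Values of all genes were not computed for these omissions.

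How far a value depends on the probe set could be seen in the 21 members with 2 or more. The gap between the lowest and the highest mean percentile of their probe sets had a median of 21.5 points, where the 4526 genes of the array with 2 or more had 28.8. The gap exceeded 50 points in 5 of the members (Slc25a15, Tomm70, Slc25a23, Timm8a1 and Slc25a27, 23.8%, all genes 20.2%). It was under 10 points in Timm10b, Tomm20, Tomm40l, Slc25a48, Slc25a13, Timm44, Slc25a10 and Tomm34. A small gap between means does not show that probe sets read alike in each cell: those of Timm10b lay at 16.3, 56.6 and 38.4 and at 57.7, 43.6 and 11.8, and those of Tomm40l at 73.0, 51.3 and 16.1 and at 15.8, 71.9 and 62.4. Likewise those of Tomm34 lay at 84.4, 73.6 and 73.7 and at 66.9, 94.5 and 94.4. The probe sets of Tomm20 lay at 62.0, 39.0 and 65.7 and at 36.3, 59.6 and 79.9. For Timm44 they lay at 60.5, 43.6 and 14.9 and at 35.0, 37.1 and 66.0. The remaining 42 members have a single probe set, among them Slc25a5, Slc25a22, Timm10 and Tomm7, so their places could not be compared in this way.

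**Figure D4:**
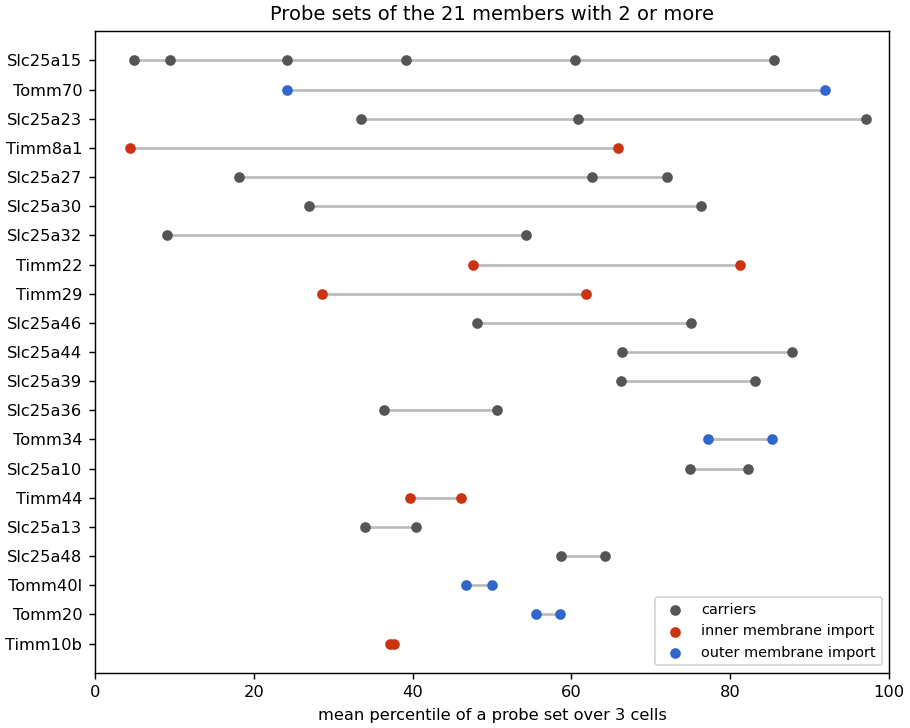
Mean percentile over the 3 cells of every probe set of the 21 members with 2 or more, with a grey line from the lowest to the highest and colour giving the class. Slc25a15 spans 4.94 to 85.6, whereas the means of Timm10b nearly coincide although its probe sets differed within cells.

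Partners of the members in import and transport were taken from lists of other mitochondrial genes. The 49 measured partners had medians of 52.1, 55.5 and 60.4 and 5, 2 and 11 of them were above background (10.2%, 4.08% and 22.4%, beside the shares of all genes given above). The matrix chaperonin stood high: Hspe1 lay at 73.1, 90.3 and 94.8 and Hspd1 at 67.2, 68.5 and 93.5, both highest in cell 3. Of the import motor, Grpel2, a nucleotide exchange factor, lay at 96.7, 94.6 and 73.1 and Romo1 at 73.5, 91.9 and 97.9, while Hspa9, the motor chaperone itself, lay at 66.97, 41.4 and 35.6 and Dnajc19, its co-chaperone, at 8.49, 63.03 and 20.3. Proteases that remove presequences stood low, with medians of 29.8, 28.3 and 37.3 over 6 genes. None of the 6 was above background in any cell, where 18.6% of all genes were so in at least 1, and with so few genes this count tells little. The proteases ran from Pmpca (52.8, 43.5 and 86.4), a subunit of the processing peptidase, to Immp1l (0.408, 1.20 and 5.09), a peptidase of the inner membrane.

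Pores and other transporters stood higher than the partners that process and sort proteins. Their medians were 59.01, 74.97 and 73.2 over 18 genes, led by Mtch1, an outer membrane relative of the carriers, at 97.4, 96.8 and 98.9, and by the pore Vdac2 at 90.8, 93.1 and 93.6, whereas the cation exchanger gene Letm1 closed the list at 36.1, 27.5 and 17.6. Mtch1 was the partner above background in every cell. Genes of sorting, assembly and redox import had medians of 44.9, 30.9 and 63.7 over 9 genes, from Mtx1 (68.2, 81.9 and 79.9) to Mtx3 (15.1, 5.75 and 11.1), both of the outer membrane sorting complex. Genes of cristae organisation had medians of 35.4, 40.2 and 14.6 over 7 genes, from Opa1 (35.4, 86.9 and 78.00), which fuses inner membranes, to Chchd3 (5.14, 26.1 and 8.93). None of these 7 was above background in any cell, where 18.6% of all genes were so in at least 1. The median difference of the partners between cells 3 and 1 was 0.60 log2, with 32 of 49 higher (65.3%), where all genes had a median of 0.21 and 55.7% higher.

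**Figure D5:**
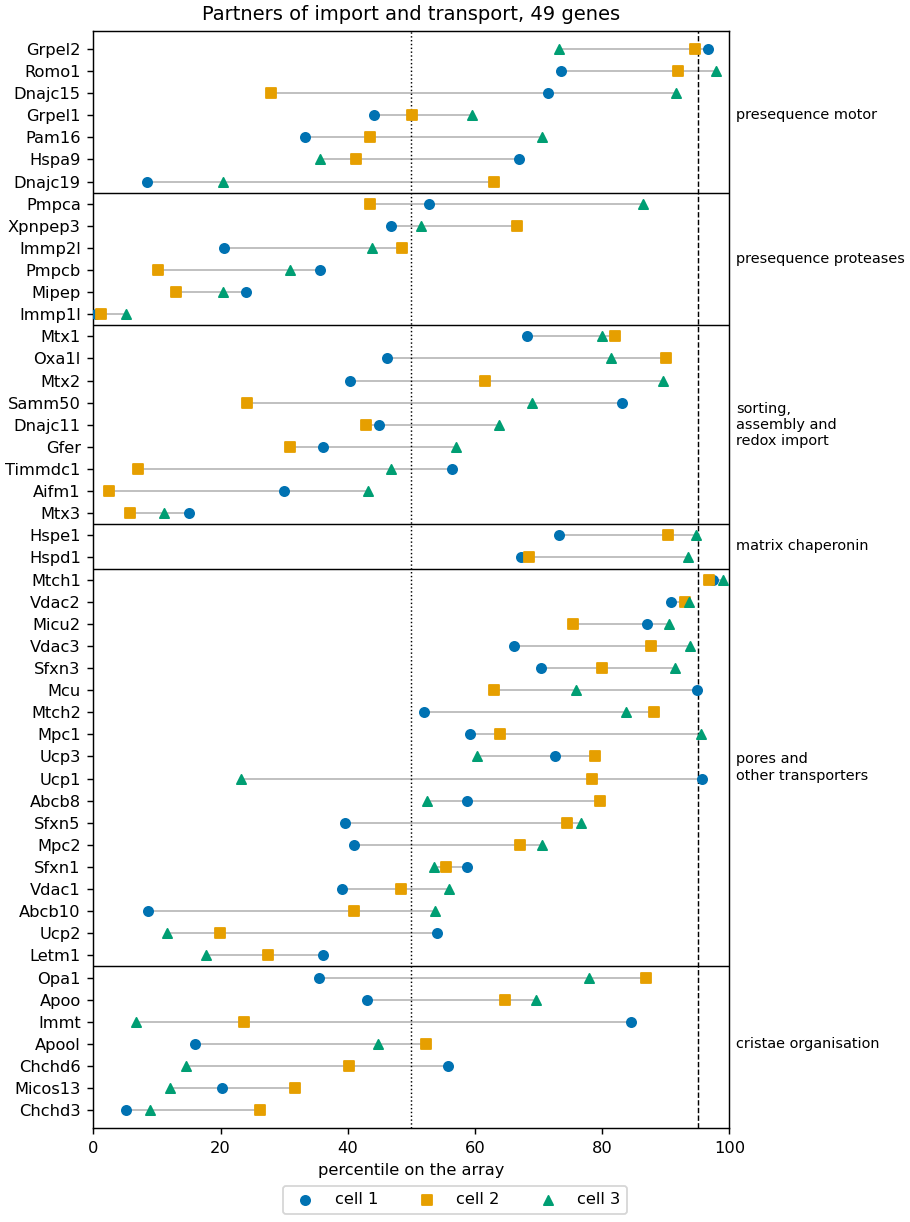
Percentile on the array (horizontal axis) of 49 partners of import and transport in cell 1 (circles), cell 2 (squares) and cell 3 (triangles), grouped by function and ordered by their mean; the dotted line marks the 50th and the dashed line the 95th percentile. Mtch1 lies beyond the dashed line in every cell, and the 6 presequence proteases lie mostly left of the dotted line.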

How the data were processed

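Values of 31099 probe sets on 3 arrays were used as deposited by the authors, on a log2 scale. The submitters' processing notes name RMA 2.0. The methods of the study describe an upper-decile summary, centring on the median and scaling by the span between percentiles 10 and 90. These values are not so centred, with array medians of 7.23, 7.16 and 7.09, and whether they were scaled was not stated. With 3 arrays, precision is limited by their number. RNA passed repeated amplification, the last for 14 h, and 5 µg of it were labelled per array.

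Symbols came from the platform annotation, whose names may be out of date. There were 20832 probe sets with 1 symbol, 436 with several and 9831 with none here. The gene numbers of all 63 members were found in the RefSeq gene table of GRCr8, which changed no symbol. Percentiles gave ties their mean rank. Ties were many, as the arrays of cells 1, 2 and 3 held 2889, 2866 and 2090 distinct values. Silent genes were 29 receptors and 111 genes of other organs, and background lay at 9.40, 9.91 and 9.35 log2, which 7 silent genes passed on each array by construction. With 1 group no test was made. Members, lists and alternatives were chosen with earlier results of these data known. Named genes were members in the top 5% or above background in every cell, the 3 highest and lowest of each class, the 5 most variable and a list of core genes by function; the remaining members that the text names were chosen after their values were seen. Scripts (Python 3.11.15, numpy 2.4.6, pandas 2.3.3, scipy 1.17.1) were tested on simulated data.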

Additional observations from a re-analysis of the deposited data

How the results depend on the processing

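For 26 results 156 values were recomputed, and the limit for calling a value unmoved was the spread between the cells. For counts the limit was a change of at most 1.5 times. For the spread of genes over the cells it was the SD of that spread between genes. By this wide limit the spread of import genes counts as unmoved, though it went from 0.58 to 0.996 with brightest probe sets. By these limits 133 values did not move. Of the others, 2 changed sign: import minus carriers, -7.23 percentile points, became 2.78 among genes above the median level and, when replicates were left out in turn, ran from -15.7 to 0.346. Among genes above the median level carriers lay at 61.3 ± 6.54 and inner membrane import at 60.4 ± 20.3. Outer minus inner import was 3.73 ± 11.1 and inner import minus carriers -0.896 ± 23.0 there. Of the import genes left by this filter, fewer than 23, 5 were higher by over 1 log2 in cell 3 than in cell 1 (all genes 28.3%). With means in place of medians carriers lay at 61.1 and inner import minus carriers was -8.81. With the 90th percentile of the silent genes as background, 7, 9 and 23 members passed in cells 1, 2 and 3 and 29 in at least 1 cell; with the receptor genes alone, 17 passed in cell 2. The brightest probe set per gene gave 9 in cell 2, 23 in cell 3 and 29 in at least 1 cell (all genes 11.1%, 20.1% and 28.8%). With it, 14 carriers and 16 import genes were higher by over 1 log2 in cell 3 than in cell 1 (all genes 30.1%). It left 1 member in the top 5% of every cell, Slc25a5, as Slc25a22 lay at percentile 92.1 in cell 1. The top 10% in place of the top 5% held 19 members in at least 1 cell. For this cutoff, the 90th percentile and the receptor genes, shares of all genes were not computed. Those counts are thus no result about the members. As deposited, 1 import gene was lower by over 1 log2 in cell 3 than in cell 1. Leaving out replicates in turn, members above background in at least 1 cell ran from 6 (without cell 3) to 17, for which shares of all genes were not computed either. The causes were not tested. No paired analysis was possible because there is 1 group. Without detection calls, low readings cannot be told from absence.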
